A study of Danio rerio with 14 samples.

Results

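The transcripts described here are those of mmp9 (gelatinase B) and mmp13a (collagenase-3), a pair of zebrafish matrix metalloproteinases, in whole eyes of larvae exposed to 6-propyl-2-thiouracil (PTU), a drug that blocks thyroid hormone synthesis. Members were chosen by gene symbol. Of the 16913 probes analysed, 2 carried these symbols, probe A_15_P114154 for mmp9 and probe A_15_P209266 for mmp13a, and they stood for 2 of the 8445 genes measured. Eyes came from wild-type larvae of the AB strain in 4 groups, which were control 5 dpf (days post-fertilization), PTU 5 dpf, control 8 dpf and PTU 8 dpf. PTU-exposed larvae received 350 mg/L from fertilization to 5 dpf, and both 8 dpf groups were kept for 3 more days in clean water without PTU, so that older age and the end of exposure cannot be told apart in PTU 8 dpf. Each group had 3 RNA extracts, each from the pooled eyes of 10 larvae, and the 12 extracts were hybridised in pairs on 14 two-colour arrays.

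Matrix metalloproteinases are zinc-dependent enzymes that are secreted or membrane-bound as inactive precursors, become active when the propeptide is removed, and are held in check by tissue inhibitors (TIMPs). Gelatinase B cleaves denatured collagen and the collagen of basement membranes, while collagenase-3 cleaves the intact fibrils of interstitial collagen. In zebrafish, mmp9 is known from leukocytes, from wounded epithelium and from Müller glia of the injured retina, and mmp13a from wounds and regenerating fins. In tadpoles of the frog Xenopus, thyroid hormone raises collagenase-3 and other metalloproteinases during metamorphosis.

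Both transcripts were higher in PTU-exposed eyes at both ages. At 5 dpf, mmp9 was 5.61-fold and mmp13a 4.63-fold higher with PTU than in controls, and at 8 dpf, after recovery, mmp9 was still 3.43-fold and mmp13a 1.85-fold higher. The effect of PTU was smaller at 8 dpf than at 5 dpf for both genes. For mmp13a this call held in all 22 alternative fits, but for mmp9 it was lost in 8 of them. Some of the 22 could not move the estimate and are no check of it. These added a dye term, used a robust estimate of the spread, or took the most variable probe of each gene. On the log2 scale, the effect at 8 dpf was 71.4% of that at 5 dpf for mmp9 and 40.3% for mmp13a, but whether the change of effect differed between the genes was not tested.

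Levels are given as log2 values relative to the mean of the 3 control 5 dpf extracts, and the level of one gene cannot be set against that of the other on this scale. For mmp9, the control 5 dpf extracts were at 0.08, -0.12 and 0.04 (replicates 1, 2 and 3), and the PTU 5 dpf extracts at 2.15, 2.87 and 2.57. The control 8 dpf extracts were at 0.29, 0.47 and 0.26, and the PTU 8 dpf extracts at 2.44, 1.83 and 1.96. At each age, every PTU extract thus lay above every control extract of mmp9, as for 26.8% of all genes at 5 dpf and 20.6% at 8 dpf. The lowest PTU extract of either age was 1.83. Group means of mmp9 were 2.53 ± 0.36 (SD, n = 3) in PTU 5 dpf, 2.08 ± 0.32 in PTU 8 dpf and 0.34 ± 0.11 in control 8 dpf, with an SD of 0.11 in control 5 dpf, where the mean is 0 by definition.

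For mmp13a, the control 5 dpf extracts were at 0.13, -0.20 and 0.07, and the PTU 5 dpf extracts at 1.78, 3.07 and 2.08. The control 8 dpf extracts were at 0.28, 0.15 and 0.09, and the PTU 8 dpf extracts at 1.17, 0.71 and 1.26. Here too no PTU extract overlapped with a control of its age, but PTU 5 dpf replicate 2 stood well above the other extracts of its group. Group means of mmp13a were 2.31 ± 0.68 (SD, n = 3) in PTU 5 dpf, 1.04 ± 0.30 in PTU 8 dpf and 0.17 ± 0.10 in control 8 dpf, with an SD of 0.18 in control 5 dpf. Across all 8445 genes, the PTU extracts lay above all control extracts of the same age for 26.8% at 5 dpf and 20.6% at 8 dpf. Since whole eyes were pooled, more cells that express a gene and more RNA per cell cannot be told apart.

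**Figure D1:**
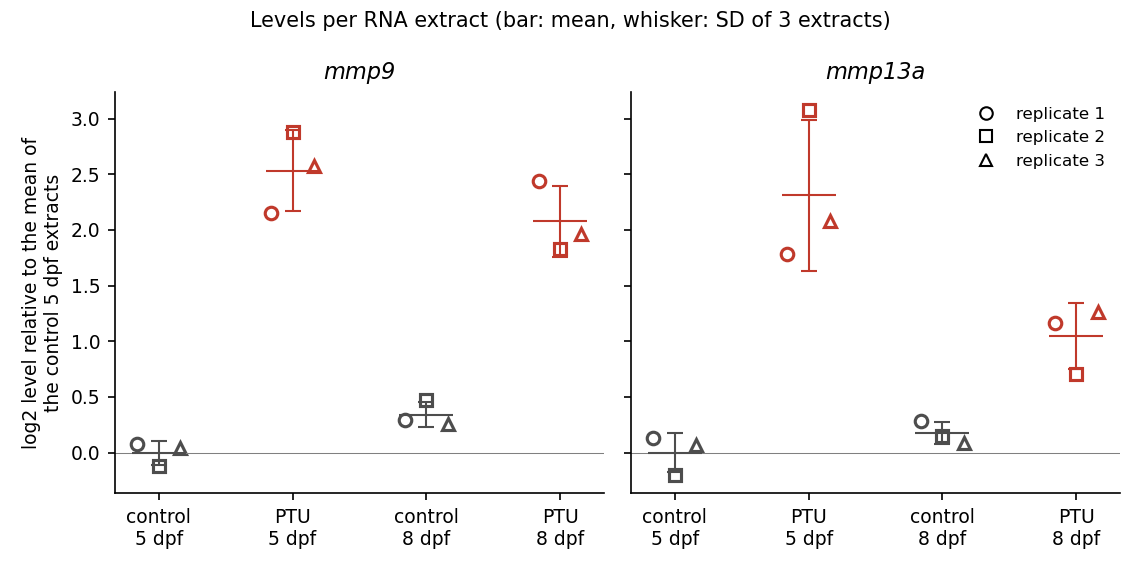
Level of mmp9 (left) and mmp13a (right) in each RNA extract, as log2 relative to the mean of the control 5 dpf extracts, by group. Symbols mark replicates 1 to 3, horizontal bars the mean and whiskers the SD of 3 extracts. PTU extracts lie above all control extracts of the same age for both genes, and mmp13a is lower in PTU 8 dpf (0.71 to 1.26) than in PTU 5 dpf (1.78 to 3.07).

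The order of the group means was the same for both genes, with control 5 dpf lowest, then control 8 dpf, PTU 8 dpf and PTU 5 dpf. Neighbouring groups in this order did not all differ. Every array that set an 8 dpf extract against a 5 dpf extract held control 5 dpf replicate 1 or PTU 5 dpf replicate 1. Changes from 5 to 8 dpf, and 8 dpf levels relative to control 5 dpf, thus depend on these extracts. Between the controls, mmp9 was 0.35 ± 0.18 (log2 ± SE, adjusted p = 0.25, limma) higher at 8 than at 5 dpf, and mmp13a 0.25 ± 0.28 higher (adjusted p = 0.642). Neither passed the test, whereas 4.67% of all genes rose and 7.05% fell in control eyes from 5 to 8 dpf. The 3 control 8 dpf extracts were all above the 3 control 5 dpf extracts for mmp9, which held for 16.5% of all genes, and overlapped with them for mmp13a.

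Within PTU-exposed eyes, mmp13a fell by 1.07 ± 0.28 from 5 to 8 dpf (adjusted p = 0.0198), and its PTU 5 dpf extracts were all above those of PTU 8 dpf, as for 15.4% of all genes. In the same contrast 6.69% of all genes fell and 8.77% rose. The corresponding value for mmp9 was -0.36 ± 0.18 (adjusted p = 0.221), and its extracts overlapped, with PTU 8 dpf replicate 1 (2.44) above PTU 5 dpf replicate 1 (2.15). The call for mmp13a was lost without control 5 dpf replicate 1 (-0.78, adjusted p = 0.33), PTU 5 dpf replicate 1 (-1.65, adjusted p = 0.0684), PTU 8 dpf replicate 2 (-0.84, adjusted p = 0.143) or PTU 8 dpf replicate 3 (-1.27, adjusted p = 0.0553).

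The log2 fold changes with PTU were tested with limma across all genes, with each extract as a random effect. At 5 dpf, the value was 2.49 ± 0.13 (SE) for mmp9 (adjusted p = 2.47e-09) and 2.21 ± 0.20 for mmp13a (adjusted p = 5.45e-07), and 24.2% of all genes rose. Ranked by log2 fold change, mmp9 was at position 11 and mmp13a at position 14 of the 8445 genes. At 8 dpf, mmp9 was at 1.78 ± 0.15 (adjusted p = 3.68e-07, position 49) and mmp13a at 0.89 ± 0.22 (adjusted p = 0.00704, position 208), while 19.6% of all genes rose. The 8 dpf call for mmp13a was lost without PTU 8 dpf replicate 1 (0.85, adjusted p = 0.0545) or PTU 8 dpf replicate 3 (0.72, adjusted p = 0.0676).

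The difference between the PTU effects at 8 and 5 dpf was -1.32 ± 0.30 for mmp13a (adjusted p = 0.00758), the 12th lowest of all genes, and it passed the test without any 1 of the 12 extracts, at -1.65 to -0.93. For mmp9 the difference was -0.71 ± 0.20 (adjusted p = 0.0208). In this test 6.92% of all genes fell and 11.9% rose. The call for mmp9 did not hold when the 12 extract levels were fitted in place of the 14 arrays (-0.80, adjusted p = 0.0804), nor without any 1 of 5 extracts, namely control 5 dpf replicate 1 (-0.71, adjusted p = 0.111), PTU 5 dpf replicate 3 (-0.70, adjusted p = 0.0618), control 8 dpf replicate 3 (-0.63, adjusted p = 0.113), PTU 8 dpf replicate 2 (-0.59, adjusted p = 0.0771) and PTU 8 dpf replicate 3 (-0.72, adjusted p = 0.0729).

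**Figure D2:**
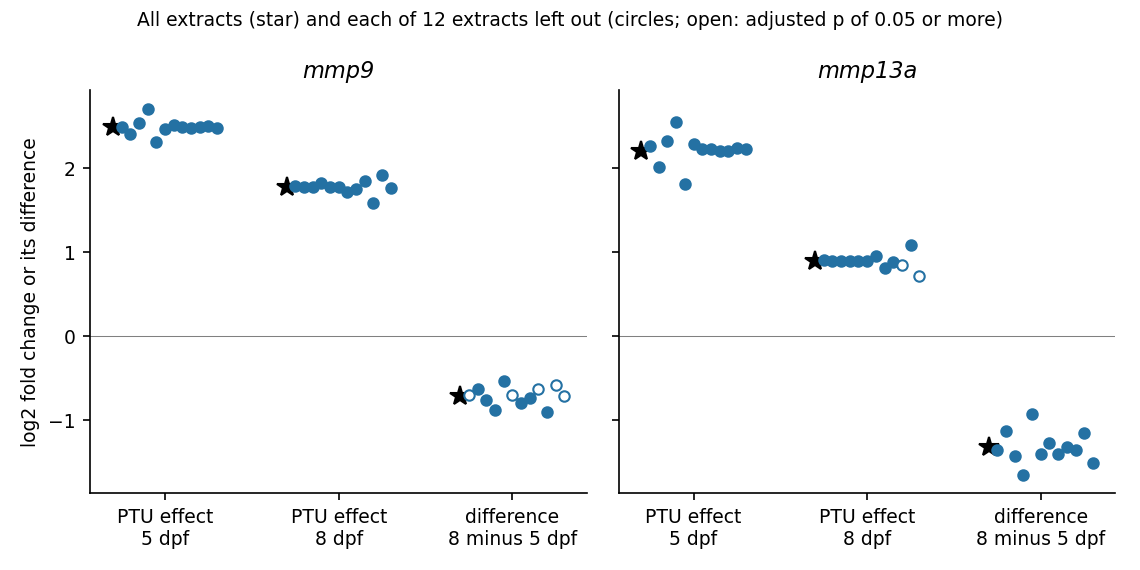
Log2 fold change with PTU at 5 and 8 dpf, and the difference of these effects, for mmp9 (left) and mmp13a (right). Stars are the values with all 12 extracts, circles those with 1 extract left out, and open circles have an adjusted p of 0.05 or more. All values keep their sign, and open circles occur for the difference in mmp9 and for the 8 dpf effect in mmp13a.

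Tested as single probes with the arrays taken as independent, both probes were called up-regulated at both ages at the thresholds of the study's methods (adjusted p under 0.05 and a log2 fold change above 0.75). The probe of mmp9 was at 2.47 ± 0.12 at 5 dpf (adjusted p = 5.57e-10) and 1.78 ± 0.14 at 8 dpf (adjusted p = 1.79e-07). The probe of mmp13a was at 2.17 ± 0.18 (adjusted p = 2.2e-07) and 0.89 ± 0.22 (adjusted p = 0.00557). Of all probes, 3.93% were called higher at 5 dpf and 3.83% at 8 dpf.

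Of the 14 arrays, 10 set a PTU extract directly against a control extract of the same age. At 5 dpf, the log2 ratio of PTU to control for mmp9 was 2.65 and 3.15 on the arrays with PTU replicate 2, 2.13 and 2.14 with replicate 1, and 2.50 and 2.52 with replicate 3. The ratio for mmp13a was 2.76 and 3.46 with PTU replicate 2, 1.80 and 1.73 with replicate 1, and 2.00 and 1.96 with replicate 3. Both genes were thus highest on the arrays with PTU replicate 2 and lowest on those with replicate 1.

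At 8 dpf, mmp9 was at 1.90 and 2.21 on the arrays with PTU replicate 1, 1.88 with replicate 3 and 1.39 with replicate 2. On the same arrays, mmp13a was at 1.04 and 0.87, at 1.32 and at 0.47. PTU replicate 2 gave the lowest ratio of both genes at this age. Ratios were above 0 on all 10 arrays in both dye orientations. With PTU in Cy3 and in Cy5, the mean for mmp9 was 2.42 and 2.60 at 5 dpf and 1.64 and 2.05 at 8 dpf, and that for mmp13a was 2.18 and 2.38 at 5 dpf and 0.75 and 1.09 at 8 dpf. The means of the dyes at 8 dpf hold different extracts, since PTU replicate 2 met a control of its age in Cy3 only and PTU replicate 3 in Cy5 only. Each extract was labelled with Cy5 as often as with Cy3. A term for the dye therefore cannot move the fitted effects (1.78 for mmp9 and 0.89 for mmp13a at 8 dpf), and their agreement with and without it is no check.

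**Figure D3:**
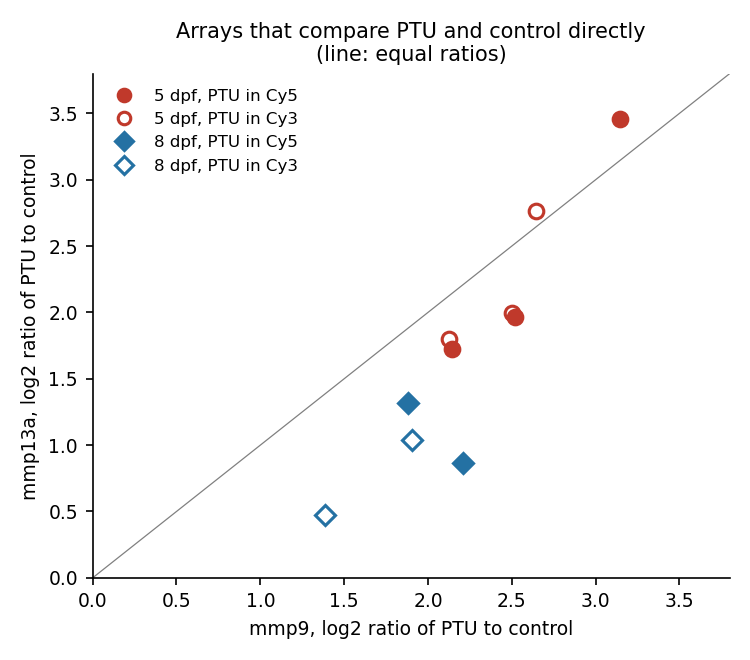
Log2 ratio of PTU to control on each of the 10 arrays that compare these groups directly, with mmp9 on the horizontal and mmp13a on the vertical axis. Circles are 5 dpf and diamonds 8 dpf, filled where PTU was in Cy5 and open where it was in Cy3. All 4 arrays of 8 dpf and 4 of the 6 of 5 dpf lie below the line of equal ratios.

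The ratio of mmp9 exceeded that of mmp13a on 4 of 6 arrays at 5 dpf and was below it on both arrays with PTU replicate 2, with differences from -0.31 to 0.56. At 8 dpf it was higher on 4 of 4 arrays, by 0.56 to 1.34. Over the extract levels, the PTU effect on mmp9 was 0.22 larger than that on mmp13a at 5 dpf (exact permutation test over 3 against 3 extracts, two-sided p = 0.4) and 0.86 larger at 8 dpf (p = 0.1). With 3 extracts per group, 0.1 is the smallest p this exact test can give, so the threshold could not be reached. The log2 levels of the genes had a Pearson correlation of 0.915 over the 12 extracts, which fall into PTU and control clusters, and their deviations from the group means one of 0.761. These values are descriptions, since extracts share arrays.

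Other matrix metalloproteinases also rose with PTU. Of 23 listed genes of the family, 4 were measured, and 4 rose at 5 dpf (median log2 fold change 0.67) and 3 at 8 dpf (median 0.90). Over all genes, 24.2% rose at 5 dpf and 19.6% at 8 dpf, with medians of -0.00 and 0.01. A feature was kept when any array showed it above background. Listed genes could thus be measured because PTU raised them, and how far this affects the counts was not tested. The second zebrafish collagenase-3 gene, mmp13b, was listed but was not among the genes measured. Whether its transcript can bind the probe of mmp13a was not tested, because probe sequences were not used.

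The largest of these changes was in mmp14b, a membrane-type metalloproteinase of the kind that activates the mmp2 precursor. It rose by 1.11 ± 0.08 at 5 dpf and by 1.51 ± 0.09 at 8 dpf. The effect was 0.40 ± 0.11 larger at 8 dpf (adjusted p = 0.0241), opposite in direction to the differences of mmp9 and mmp13a. Its paralog mmp14a rose by 0.48 ± 0.12 and 0.67 ± 0.14, with no difference between the ages that passed the test (0.19 ± 0.19, adjusted p = 0.523). For mmp2 (gelatinase A), the changes were 0.84 ± 0.15 and 1.13 ± 0.16, and the difference was 0.29 ± 0.22 (adjusted p = 0.388). In mmp30, another member of the family, a rise of 0.51 ± 0.12 at 5 dpf stood against -0.18 ± 0.13 at 8 dpf (adjusted p = 0.311). The effects of PTU on mmp30 differed by -0.69 ± 0.18 (adjusted p = 0.0133). Single extracts decided 4 of these results. The difference of mmp2 passed the test without control 5 dpf replicate 3 (0.55, adjusted p = 0.0224). At 5 dpf, mmp14a was no longer called when replicate 3 of either group or control replicate 1 was left out (0.33 to 0.48, highest adjusted p = 0.0672). The difference of mmp30 was lost when PTU 5 dpf replicate 1 or, at 8 dpf, replicate 3 of either group was left out (-0.71 to -0.53, highest adjusted p = 0.086), and that of mmp14b without any of 7 extracts, namely control replicates 1 and 2 and PTU replicate 1 at 5 dpf, and replicates 1 and 3 of both groups at 8 dpf (0.31 to 0.43, highest adjusted p = 0.133).

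In control eyes, mmp2 fell by 0.98 ± 0.20 from 5 to 8 dpf (adjusted p = 0.00563), a test that neither mmp9 nor mmp13a passed, but the call was lost without control 5 dpf replicate 1 (-0.91, adjusted p = 0.247) or PTU 5 dpf replicate 1 (-1.04, adjusted p = 0.0738). The control 5 dpf extracts spread widely for mmp2, with levels of 0.09, 0.49 and -0.58, and replicate 3 was also the lowest for mmp14a (-0.32) and mmp14b (-0.23). The mean level of 18 epidermal and corneal epithelial markers was likewise low in this extract (-0.50) and higher in control 5 dpf replicates 1 and 2 (0.21 and 0.28). With that extract left out, mmp2 was at 0.57 for PTU against control at 5 dpf (adjusted p = 0.000684) and at -1.15 for control eyes from 5 to 8 dpf (adjusted p = 0.000171). For mmp9 and mmp13a, that extract was at 0.04 and 0.07, close to the other controls.

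Among the inhibitors, 2 of 7 listed genes were measured. timp2b, a tissue inhibitor of metalloproteinases, rose by 1.00 ± 0.09 at 5 dpf (adjusted p = 7.19e-07) and by 0.28 ± 0.10 at 8 dpf (adjusted p = 0.0489), and the difference was -0.71 ± 0.14 (adjusted p = 0.00308). Its lowest level was 0.87 in PTU 5 dpf (replicate 3) and its levels in PTU 8 dpf were 0.50, 0.31 and 0.25. All lay above the control extracts of the same age (at most 0.11 at 5 dpf and 0.22 at 8 dpf). Such separation held for 26.8% of all genes at 5 dpf and 20.6% at 8 dpf. The 8 dpf call of timp2b was so near the threshold that leaving out single extracts or 1 array ended it. The paralog timp2a was at 0.04 ± 0.10 and 0.18 ± 0.11 and passed at neither age.

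**Figure D4:**
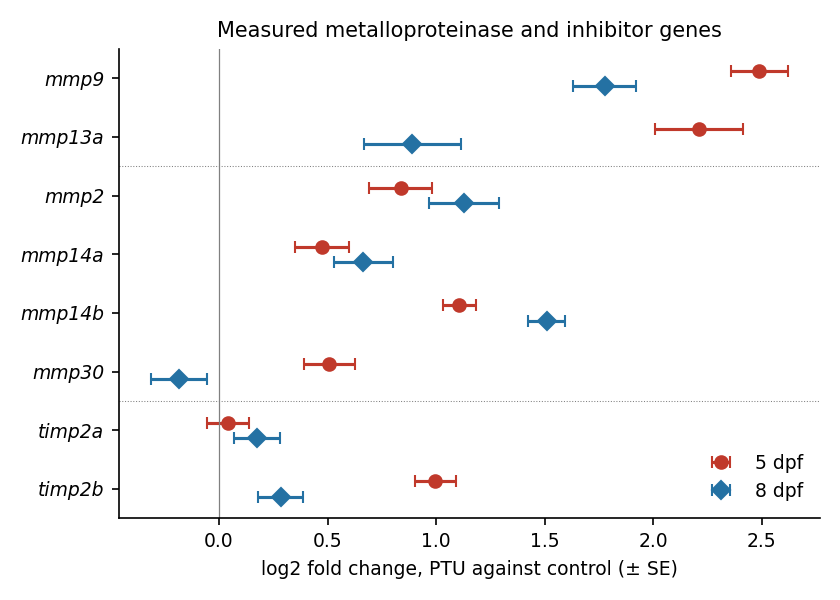
Log2 fold change of PTU against control for the measured matrix metalloproteinases and their inhibitors at 5 dpf (circles) and 8 dpf (diamonds), with whiskers of 1 SE of the fit over 14 arrays. The difference between the ages passed the test for mmp9, mmp13a, mmp30 and timp2b, with the smaller value at 8 dpf, and for mmp14b, with the larger one. It did not for mmp2, mmp14a and timp2a, which are also larger at 8 dpf.

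Some other extracellular proteases rose with PTU, and 1 fell at 5 dpf, a share no higher than that of all genes. Of 29 listed genes for ADAM, ADAMTS and astacin proteases, 6 were measured, of which 3 rose and 1 fell at 5 dpf (median 0.16) and 2 rose at 8 dpf (median 0.13). Of all genes, 22.8% fell at 5 dpf and 13.2% at 8 dpf. adam8a, which encodes a membrane protease of leukocytes, rose by 0.84 ± 0.08 and 0.96 ± 0.08. bmp1a, a procollagen C-proteinase, rose by 0.95 ± 0.10 at 5 dpf and was at 0.22 ± 0.11 at 8 dpf (adjusted p = 0.132), whereas its paralog bmp1b fell by 0.26 ± 0.06 at 5 dpf and rose by 0.22 ± 0.07 at 8 dpf. adam10b, a sheddase, rose by 0.25 ± 0.07 at 5 dpf and was at 0.05 ± 0.08 at 8 dpf. At 5 dpf the rise of adam10b was lost when replicate 1 of either group or PTU replicate 3 was left out (0.19 to 0.26), and that of bmp1b at 8 dpf without replicate 1 of any group, control 8 dpf replicate 2 or PTU 8 dpf replicate 3 (0.17 to 0.24).

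In the plasminogen system and the proprotein convertases, which can activate metalloproteinase precursors, 5 of 14 listed genes were measured. At 5 dpf only furina, a furin convertase, rose among them (0.26 ± 0.06, median of the list 0.13), a share of the list no higher than the 24.2% of all genes that rose. At 8 dpf 2 rose (median 0.10), while 19.6% of all genes rose. They were the urokinase gene plaub (0.59 ± 0.07) and the protease inhibitor gene serpine2 (0.33 ± 0.10). The value of plaub at 5 dpf was 0.15 ± 0.07 (adjusted p = 0.0765), and its effect differed between the ages by 0.44 ± 0.10 (adjusted p = 0.00683). The rise of serpine2 was lost on leaving out single extracts. furinb was at 0.00 ± 0.30 and -0.27 ± 0.33 and did not pass.

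Of 55 listed collagens and other matrix proteins, many of which are cleaved by metalloproteinases, 34 were measured. At 5 dpf 15 rose and 3 fell (median 0.28), and at 8 dpf 18 rose and 1 fell (median 0.37), but without PTU 8 dpf replicate 1 only 10 rose at 8 dpf. Rises made up 24.2% of all genes at 5 dpf and 19.6% at 8 dpf, and falls 22.8% and 13.2%. The fibronectin gene fn1b rose by 2.16 ± 0.14 at 5 dpf and 0.88 ± 0.16 at 8 dpf, close to the values of mmp13a. The fibrillar collagen gene col5a3a rose by 1.07 ± 0.09 at 5 dpf and was at 0.15 ± 0.10 at 8 dpf (adjusted p = 0.317). col9a1b, for a collagen of cartilage and vitreous, rose by 0.28 ± 0.07 and 0.81 ± 0.08. kera, the gene of the corneal proteoglycan keratocan, fell by 1.34 ± 0.11 and 1.07 ± 0.12. The others that fell at 5 dpf, named after their values were seen, were sparc, a collagen-binding glycoprotein (fell by 0.47 ± 0.10), and vtnb, a vitronectin (fell by 0.28 ± 0.07). At 5 dpf the call of col9a1b was lost without control or PTU replicate 1 (0.26 to 0.27), that of sparc without control replicate 1 (-0.31) and that of vtnb without control or PTU replicate 3 (-0.23 in both cases).

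Transcription factors of the AP-1, NF-kB, STAT, ETS and C/EBP families are known regulators of metalloproteinase genes. Of 28 listed factors and their inhibitors, 18 were measured, of which 14 rose at 5 dpf (median 0.47) and 10 at 8 dpf (median 0.33), with none falling. The shares of all genes were 24.2% rising and 22.8% falling at 5 dpf, and 19.6% and 13.2% at 8 dpf. The PTU effect was smaller at 8 dpf for 7 of the 18 and larger for 1, cebpa (0.72 ± 0.09 and 1.28 ± 0.10, named after its values were seen). Among all genes, 6.92% fell and 11.9% rose in this test. The stress-induced factor atf3 rose by 3.81 ± 0.12 at 5 dpf and 2.04 ± 0.14 at 8 dpf. The AP-1 subunit jun rose by 2.17 ± 0.09 and 0.97 ± 0.10, and junbb by 1.86 ± 0.11 and 0.67 ± 0.12. cebpb, a factor of inflammatory responses, rose by 2.58 ± 0.13 and 1.54 ± 0.15. For these 4 genes the effect at 8 dpf was smaller than at 5 dpf, with differences of -1.78 ± 0.18 for atf3, -1.20 ± 0.14 for jun, -1.19 ± 0.16 for junbb and -1.03 ± 0.20 for cebpb (largest adjusted p = 0.00264). Unlike mmp9 and mmp13a, this list had its lowest PTU 5 dpf mean level in replicate 2 (0.77, against 0.95 and 1.02 in replicates 1 and 3).

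Of 32 listed cytokines, receptors and adaptors of inflammation, 11 were measured. At 5 dpf 8 rose and 1 fell (median 0.73), and at 8 dpf 5 rose and 1 fell (median 0.34). The shares of all genes were 24.2% rising and 22.8% falling at 5 dpf, and 19.6% and 13.2% at 8 dpf. The chemokine gene ccl34a.4 rose by 2.19 ± 0.10 and 2.09 ± 0.11, and il34, a ligand of the macrophage colony-stimulating factor receptor, by 1.34 ± 0.07 and 1.14 ± 0.08, neither with a difference between ages that passed the test. cxcl18b, a chemokine that attracts neutrophils, rose by 1.78 ± 0.09 and 1.09 ± 0.10. ptgs2b, a cyclooxygenase gene, rose by 1.07 ± 0.09 at 5 dpf and was at 0.12 ± 0.10 at 8 dpf (adjusted p = 0.379). The other genes of the small counts, named after their values were seen, were tnfb (0.73 ± 0.10 and 0.85 ± 0.11), tnfrsf1a (0.98 ± 0.14 and 1.04 ± 0.16) and tgfb3, which fell by 0.41 ± 0.09 and 0.34 ± 0.10. The call of tgfb3 was lost at 5 dpf without control 5 dpf replicate 1, and at 8 dpf without control 5 dpf replicate 1, control 8 dpf replicate 2 or PTU 8 dpf replicate 1.

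Leukocyte markers were higher in the same PTU-exposed eyes, and their part in the rise of mmp9 and mmp13a was not tested. Of 14 listed pan-leukocyte markers 10 were measured, and 9 rose at each age, with medians of 1.32 at 5 dpf and 1.99 at 8 dpf. Of all genes, 24.2% rose at 5 dpf and 19.6% at 8 dpf. L-plastin (lcp1) rose by 2.35 ± 0.10 and 3.12 ± 0.11, the coronin gene coro1a by 1.37 ± 0.07 and 2.03 ± 0.08, the myeloid transcription factor gene spi1a by 1.34 ± 0.10 and 2.40 ± 0.11, and its paralog spi1b by 1.45 ± 0.09 and 2.36 ± 0.10. The mean level of the list was -0.10 to 0.07 in control 5 dpf, 1.11 to 1.21 in PTU 5 dpf, 0.13 to 0.19 in control 8 dpf and 1.87 to 2.02 in PTU 8 dpf. From 5 to 8 dpf in PTU-exposed eyes, 8 of the 10 markers rose, against 8.77% of all genes. The PTU effect was larger at 8 dpf for 8 of 10, against 11.9% of all genes. On mmp9 and mmp13a the effect was smaller, a call that mmp9 lost in some alternative fits.

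Macrophage and microglia markers gave a mixed picture beside this. Of 18 listed genes 8 were measured. At 5 dpf 7 rose (median 1.09), against 24.2% of all genes, and at 8 dpf 8 rose (median 1.51), against 19.6%. The list mean was 1.02 to 1.25 in PTU 5 dpf and 1.70 to 1.80 in PTU 8 dpf, against -0.13 to 0.15 and 0.13 to 0.21 in the controls. The granulin gene grna.1 rose by 1.57 ± 0.11 and 3.02 ± 0.12. cd74a, the invariant chain of antigen presentation, was at 0.10 ± 0.10 at 5 dpf (adjusted p = 0.465) and rose by 2.30 ± 0.12 at 8 dpf. These and irf8 (0.93 ± 0.11 and 1.57 ± 0.13, named after its values were seen) were the 3 genes of the list with a larger effect at 8 dpf. The cathepsin S gene ctss2.1 rose by 1.96 ± 0.13 and 1.45 ± 0.14, slc7a7, an amino acid transporter gene needed by microglia, by 1.43 ± 0.11 and 1.32 ± 0.13, and the macrophage gene mpeg1.1, also named after its values were seen, by 0.92 ± 0.09 and 0.77 ± 0.10. For these 3 no difference between the ages passed the test.

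Of 10 listed neutrophil markers only lyz and npsn were measured, and both rose at both ages, against 24.2% of all genes at 5 dpf and 19.6% at 8 dpf. lyz (lysozyme) rose by 0.66 ± 0.09 and 0.51 ± 0.10, and npsn (nephrosin, a neutrophil metalloprotease) by 0.47 ± 0.08 and 0.71 ± 0.09, with no difference between ages that passed the test. Their mean level in PTU 5 dpf was 0.35, 0.77 and 0.68 in replicates 1, 2 and 3, lowest in replicate 1 and highest in replicate 2, as for mmp9 and mmp13a. The same order held for the other metalloproteinases (0.68, 0.80 and 0.77) and for the list of collagens and matrix proteins (0.20, 0.30 and 0.25), so it was not particular to neutrophil markers. In PTU 8 dpf the neutrophil mean was 0.77, 0.51 and 0.69, with replicate 2 lowest as for both genes, which was also so for the matrix list (-0.05, -0.39 and -0.35) and the pan-leukocyte list (2.02, 1.87 and 1.91), among others. In the controls the neutrophil mean was -0.09 to 0.06 at 5 dpf and 0.01 to 0.12 at 8 dpf.

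**Figure D5:**
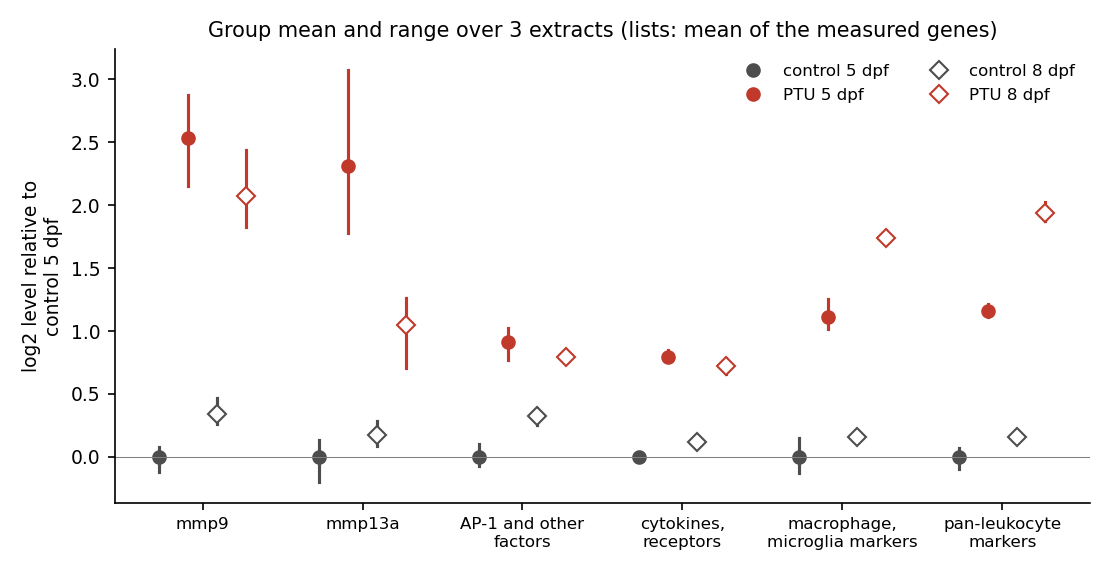
Log2 level relative to control 5 dpf for mmp9, mmp13a and the mean of the measured genes of 4 lists, by group. Points are means and lines the range over 3 extracts. Leukocyte lists are highest in PTU 8 dpf (pan-leukocyte mean 1.87 to 2.02), whereas mmp9 and mmp13a have their highest mean in PTU 5 dpf.

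Markers of other cells of the eye moved in both directions. Of 18 measured epidermal and corneal epithelial markers (19 listed), 4 rose and 7 fell at 5 dpf (median -0.21), and 4 rose and 5 fell at 8 dpf (median -0.00). The epithelial rises were near the shares of all genes at both ages, and the falls were above them in the main fit. Of 9 measured Müller glia markers (10 listed), 4 rose and 4 fell at 5 dpf (median -0.11), and 4 rose and none fell at 8 dpf (median 0.31). Of 6 measured markers of fibroblasts and periocular mesenchyme (11 listed, lum and dcn also on the matrix list), 2 rose and none fell at 5 dpf (median 0.08). At 8 dpf 4 rose and 1 fell (median 0.35). Of 5 measured vascular endothelial markers (9 listed), 1 rose and 1 fell at 5 dpf and 1 rose at 8 dpf (medians 0.01 and -0.01), shares close to those of all genes (24.2% and 22.8% at 5 dpf, 19.6% at 8 dpf). Lens and photoreceptor genes, which define the labelled tissue, were measured for 13 of 15 listed, with 1 rising and 11 falling at 5 dpf (median -1.47) and 2 rising and 8 falling at 8 dpf (median -0.48). Most of these counts changed by more than 1.5 times without single extracts. The epithelial falls at 5 dpf ranged from 3 to 10 and the glial falls from 1 to 4. At 8 dpf, leaving out PTU 8 dpf replicate 1 gave the lowest numbers, 2 mesenchymal rises and 5 falls of lens and photoreceptor genes. The 11 falls of the latter at 5 dpf were 11 to 12 in all these fits. Ratios between extracts do not show how abundant a marker was, so absence of a cell type could not be read from them.

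The genes most like each metalloproteinase over the 12 extracts, by Pearson correlation of the log2 levels among all 8445 genes, were different for mmp9 and mmp13a. For mmp9 they were ctss2.1 (r = 0.980), ccl34a.4 (0.978), cd276, a regulator of T cells in mammals (0.977), il34 (0.976) and the clusterin gene clu (0.976), which rose by 3.14 ± 0.08 at 5 dpf and 2.22 ± 0.09 at 8 dpf. For mmp13a they were spp1, osteopontin (0.966), ran, a GTPase of nuclear transport (0.943), the ubiquitin-like gene isg15 (0.936), xbp1, a factor of the unfolded protein response (0.935), and ajuba, a LIM domain gene (0.935). By the same measure mmp13a was at position 156 for mmp9, and mmp9 at position 27 for mmp13a. spp1 rose by 1.02 ± 0.11 at 5 dpf and 0.63 ± 0.12 at 8 dpf, and xbp1 by 1.40 ± 0.10 and 0.40 ± 0.11, its call at 8 dpf being lost when replicate 1 of either 8 dpf group or control replicate 3 was left out (0.34 to 0.42). These correlations rest largely on the contrast of PTU with control and are a description over extracts that share arrays.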

How the data were processed

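Eyes of zebrafish larvae were compared on 14 two-colour Agilent arrays, with 12 RNA extracts (control 5 dpf replicate 1 and PTU 5 dpf replicate 1 on 4 arrays each, the other 10 on 2). The deposited table holds the log2 of Cy5 over Cy3 for each array. To make them, the authors measured spot brightness in GenePix Pro, dropped features that no array showed above its local background by 2 SD, and used normexp background correction and within-array loess of limma 3.34.4. A gene that only PTU extracts showed above background could thus be among those measured. Counts of rises in all gene lists and marker lists may be raised by this, which was not tested. The table states neither base nor direction, which come from the methods and the dye labels. Array medians were -0.0116 to -0.00113. Single-channel intensities were not used here, and precision is limited by the small number of arrays.

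Of 16914 probes, 1 control was left out, and 13708 were assigned to 8445 genes through RefSeq accessions or symbols of GRCz12tu. mmp9 was matched by accession and mmp13a by symbol, and they lie on different chromosomes. Probes of a gene were averaged. Genes were fitted with limma 3.58.1 in R 4.3.3 by generalized least squares, with group coefficients, a random effect of the extract (variance ratio of extract to array 0.138, common to all genes), 11 residual degrees of freedom and Benjamini-Hochberg adjustment over all genes. A standard error is too small where a gene's extracts vary more than this common ratio. For PTU at 5 dpf, a fit of the 12 extract levels gave larger SEs than the main fit. They were 0.18 against 0.13 for mmp9 and 0.26 against 0.20 for mmp13a. Genes rose or fell at an adjusted p under 0.05. Levels per extract are least-squares estimates over the arrays. The fit was tested on simulated data. Summaries and exact tests were made in Python 3.11.15.

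The members, gene lists and tests were chosen with earlier results of these data known. Named genes are the members, all measured metalloproteinases and inhibitors, up to 4 genes of each other list with the smallest p, and the 5 genes most correlated with each member; other exceptions are marked. Genes of the epithelial, glial, mesenchymal, endothelial and eye lists are given as counts only. The labels name replicates but not separate spawnings. The paper describes biological replicates on separate plates, with eggs of different breeding pairs mixed. The p-values thus measure the spread between arrays and between pools of different larvae, part of which may be technical. Alternatives were other scalings, a dye term, independent arrays, direct arrays only, extract levels, a replicate block and another fold threshold. Others used a robust estimate of the spread, took the most variable probe of each gene, or left out each extract. Chosen after seeing the data was leaving out the array with the largest residual spread (control 8 dpf replicate 2 with PTU 8 dpf replicate 1). Sequences were not used here.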

Additional observations from a re-analysis of the deposited data

Results flagged for a closer look

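For 31 of the 54 members and named genes, the effect of PTU differed between 5 and 8 dpf in limma's test of the difference, at an adjusted p under 0.05 over all genes. Among all genes, 6.92% fell and 11.9% rose in this test. Many of the 54 were chosen by a small p for PTU or by likeness to a member, so their share cannot be compared with these. Over the direct arrays of each age, no single ratio of mmp9 or mmp13a passed Dixon's test for an outlying value, which does not test the pair of arrays with PTU 5 dpf replicate 2, where mmp13a was highest (2.76 and 3.46). All values below are log2 fold changes with PTU at 8 dpf minus those at 5 dpf, from 3 extracts per group.

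The members were at -0.71 for mmp9 (adjusted p = 0.0208) and -1.32 for mmp13a (adjusted p = 0.00758). Other proteases and inhibitors were at -0.69 for mmp30 (adjusted p = 0.0133), -0.71 for timp2b (adjusted p = 0.00308) and -0.73 for bmp1a (adjusted p = 0.00321), and in the other direction at 0.40 for mmp14b (adjusted p = 0.0241), 0.48 for bmp1b (adjusted p = 0.0031) and 0.44 for plaub (adjusted p = 0.00683).

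Matrix genes were at -1.28 for fn1b (adjusted p = 0.000971) and -0.92 for col5a3a (adjusted p = 0.000511), and at 0.53 for col9a1b (adjusted p = 0.00333), 0.85 for sparc (adjusted p = 0.00156) and 0.51 for vtnb (adjusted p = 0.00598). Transcription factor genes were at -1.78 for atf3 (adjusted p = 2.79e-05), -1.20 for jun (adjusted p = 6.63e-05), -1.19 for junbb (adjusted p = 0.000221) and -1.03 for cebpb (adjusted p = 0.00264), with the opposite sign at 0.56 for cebpa (adjusted p = 0.00797). Cytokine and prostaglandin genes were at -0.69 for cxcl18b (adjusted p = 0.00392), -0.95 for ptgs2b (adjusted p = 0.000239) and -0.34 for ptgs2a (adjusted p = 0.00922, named after its values were seen). Of the genes most like mmp9 or mmp13a, the difference was -0.92 for clu (adjusted p = 0.00018), -0.52 for isg15 (adjusted p = 0.015) and -1.004 for xbp1 (adjusted p = 0.00035).

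The leukocyte markers named in the report whose difference passed the test had the opposite sign from mmp9 and mmp13a, with 1.45 for grna.1 (adjusted p = 4.92e-05), 2.21 for cd74a (adjusted p = 5.9e-07) and 0.65 for irf8 (adjusted p = 0.0156) among macrophage and microglia markers and 0.76 for lcp1 (adjusted p = 0.00242), 0.66 for coro1a (adjusted p = 0.000597), 1.06 for spi1a (adjusted p = 0.000241) and 0.92 for spi1b (adjusted p = 0.000386) among pan-leukocyte markers. It did not pass for ctss2.1 (-0.51), mpeg1.1 (-0.16), slc7a7 (-0.11) and lyz (-0.15), which had the same sign as mmp9 and mmp13a. Nor did it pass for npsn (0.24), which had the opposite sign.

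Without PTU 5 dpf replicate 1 the difference was no longer past the threshold for mmp14b, mmp30, timp2b (-0.59), bmp1a (-0.68), cxcl18b (-0.66), cebpa (0.58), isg15, vtnb, ptgs2a and irf8. That extract was on more arrays than most others, so the fit without it holds fewer arrays. Calls became fewer over all genes too, with 409 genes rising in the test of the difference, against 1003 in the main fit. Whether the losses come from the extract itself or from the smaller fit was not tested. Leaving out another extract also lost the calls of mmp14b, mmp30, isg15 (PTU 8 dpf replicate 2), vtnb and ptgs2a (control 8 dpf replicate 3 for both) and irf8 (control 5 dpf replicate 1 or PTU 5 dpf replicate 2). In these fits the differences were 0.31 to 0.43 for mmp14b, -0.71 to -0.53 for mmp30, -0.55 to -0.48 for isg15, 0.41 to 0.50 for vtnb, -0.34 to -0.31 for ptgs2a and 0.57 to 0.67 for irf8.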

How the results depend on the processing

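Of 216 values for mmp9 and mmp13a under alternatives, 202 kept their direction and side of the threshold and 14 did not, and none changed sign. Among the 202 are estimates that could not move. A dye term, a robust estimate of the spread and the choice of the most variable probe left all estimates as they were. Leaving out replicate 2 or 3 of either 5 dpf group left the 8 dpf effects at 1.78 for mmp9 and 0.89 for mmp13a. The lower PTU effect on mmp9 at 8 than at 5 dpf (-0.71) was no longer past the threshold with arrays scaled to the same spread (-0.60, adjusted p = 0.105), with levels of the 12 extracts (-0.80, adjusted p = 0.0804) or with direct arrays only (-0.67, adjusted p = 0.0749), and ranged from -0.90 to -0.53 without single extracts. The cause was not tested. Without single extracts, the effect on mmp13a at 8 dpf ranged from 0.72 to 1.09 and its change in PTU-exposed eyes from -1.65 to -0.78, and each lost its call in some of these fits, which hold fewer samples. The effect at 5 dpf stayed past the threshold in all fits, at 2.31 to 2.71 for mmp9 and 1.82 to 2.55 for mmp13a without single extracts. With a log2 threshold of 1 for probes, 1 of 2 was called at 8 dpf, since mmp13a lies below it. For the 52 other named genes, added as a check after seeing the data, 41 of 47 calls at 5 dpf, 33 of 42 at 8 dpf and 19 of 29 differences were past the threshold in every fit without 1 extract. Correlations of the deviations of same-numbered extracts were -0.19, 0.13 and -0.09 at 5 dpf and 0.63, 0.17 and -0.22 at 8 dpf. Extracts on the same array share its error, so these values cannot show whether replicate numbers pair the samples. With a replicate block, mmp9 was at 2.50, 1.79 and -0.70 (5 dpf, 8 dpf and difference) and mmp13a at 2.22, 0.91 and -1.31, and its change in PTU-exposed eyes at -1.12, and no call changed. Leaving out the array of largest residual spread (SD 0.346, others 0.171 to 0.283) changed no call of either gene.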
